A study of Drosophila melanogaster with 3 samples.

Results

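The regions described here are the binding peaks of the wek protein on the X chromosome of Drosophila melanogaster embryos. They were chosen by position alone, as every peak of the authors' thresholded list that lies on X, which gave 554 of 3582 peaks (15.5%). The 554 peaks formed 552 separate regions once overlapping ones were joined. The comparison sets were the 2273 peaks on 2L, 3L and 3R (688, 722 and 863 peaks) and 4126 weaker X regions, defined below.

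The libraries were ChIP-seq of a transgenic line that stably expresses wek with green fluorescent protein at its C terminus. Whole embryos, males and females together, were collected from 0 to 16 hours, and chromatin was sonicated to 200 to 800 bp. The data form 1 group of 3 biological replicates, all of this single line. Embryos without the tag were not analysed here. The description field calls each library an input control, while the assay title and the antibody field describe ChIP of wek, and the libraries were taken as ChIP. Whole embryos pool many cell types, male and female nuclei and a long span of development, so a difference in the number of cells bound and in binding per cell cannot be told apart.

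Weckle, the product of wek, belongs to the ZAD family of zinc finger proteins, which dimerize through an insect-specific N-terminal domain. It is best known for linking the Toll receptor to its downstream adaptor. The X chromosome is present in a single copy in males, where the dosage compensation complex, with the noncoding RNAs roX1 and roX2, raises transcription of its genes. The part of this copy number in the differences between X and the other arms below was not tested. Housekeeping promoters in flies often lie in head-to-head pairs of genes, whereas developmentally regulated genes are often controlled from enhancers in their introns.

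Signal values are the authors' caller's own value per region, used only to rank regions within a list. The X peaks had a median signal of 217 (146.3 to 2526), and 553 of the 554 shared the highest −log10 q-value of the list. A relaxed list of 30000 regions was deposited for each replicate and for the pooled replicates. The thresholded peaks were, to the base, the 3582 pooled regions of highest signal. The 4126 other X regions are the pooled X regions that overlap no peak, so they are weaker by construction. Sequencing depth is unknown. The relaxed lists of replicates 1, 2 and 3 held 4886, 3874 and 4822 X regions, so replicate 2 had the fewest. Replicate values below use the 3582 regions of highest signal in each replicate's list, of which 526, 538 and 524 lay on X.

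The 5 strongest X peaks lay within 250 bp upstream of start sites, and 5 of the first 20 held the word GAATACCC. A peak is named here by the nearest transcription start site (TSS) of a protein-coding gene, and negative positions are upstream of it. The first was at sicily, which acts in assembly of mitochondrial complex I (X:11891752-11892162, dm6, summit at -47 bp), with a signal of 2526. Its ranks among all regions were 12, 16 and 5 in replicates 1, 2 and 3. The second was at Ogg1, a DNA glycosylase that removes oxidized guanine (X:8690021-8690512, summit at -44 bp, signal 2435). It ranked 9, 9 and 33, and the same peak lay within 500 bp of Ppt1, a lysosomal thioesterase gene that starts on the opposite strand. Both peaks were thus near the head of every list.

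The next peaks were at wapl, which releases cohesin from chromosomes (X:2155897-2156334, summit at -222 bp, signal 2125, ranks 20, 21 and 45), and at Ugalt, a UDP-galactose transporter (X:2703725-2704059, summit at -31 bp, signal 2121). The wapl summit lies inside the gene, upstream of an internal start site. Ugalt ranked 31 and 35 in replicates 1 and 2 but 3 in replicate 3. The fifth was at Mvd, an enzyme of the mevalonate pathway (X:15748933-15749306, summit at -53 bp, signal 2017), with ranks of 24, 30 and 31. Its ranks were the closest together of these 5 peaks.

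The sequences around these summits are shown for 2 strong X peaks with the word GAATACCC and 1 without it. They were read from RefSeq's sequence of that build on the gene's strand, 40 bases to each side of the summit, and capitals mark GAATACCC, the CAGCTG word or a GA repeat.
Ogg1, X:8690243-8690323, plus strand: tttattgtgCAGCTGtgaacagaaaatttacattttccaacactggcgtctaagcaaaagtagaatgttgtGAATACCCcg
Mvd, X:15749073-15749153, plus strand: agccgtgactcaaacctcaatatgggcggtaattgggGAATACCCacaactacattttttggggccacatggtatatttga
wapl, X:2156084-2156164, minus strand: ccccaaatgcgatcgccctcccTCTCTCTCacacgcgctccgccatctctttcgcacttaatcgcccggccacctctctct
The capitals of the wapl window are the GA repeat read from the other strand.

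The remaining copies of the word near summits of the strongest X peaks are given in windows of 30 bases, with GAATACCC in capitals and read on the strand that carries it.
sicily, X:11891928-11891957, plus strand: cgcgtaatcgcGAATACCCcatatgtagta
PIG-K, X:2009913-2009942, plus strand: agccgtttatgGAATACCCttaccaattct
Tomosyn, X:12631480-12631509, plus strand: aattttacgggGAATACCCtaaatagcgaa
CG14435, X:6843930-6843959, minus strand: cattcttattaGAATACCCgtcgacaatcg
CG14435, X:6843994-6844023, minus strand: gcgcaaatgaaGAATACCCcatctaggttc
CG7889, X:19243574-19243603, plus strand: gccaaagttggGAATACCCcatttgttttt
The other X peaks with the word, at Moe, CG17162 and CG6414, were weaker (378.0, 178.0 and 161.1). The sicily copy lies in the 5′ UTR of another annotated transcript of the gene. CG14435 carries 2 copies under 1 peak (signal 648.8), and its ranks were 294, 244 and 454. The peak near PIG-K, a subunit of the complex that attaches GPI anchors, was intergenic at -553 bp (signal 878.9, ranks 140, 179 and 474). Tomosyn, a regulator of vesicle fusion, had its summit at -72 bp (signal 790.8, ranks 220, 183 and 255).

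**Figure D1:**
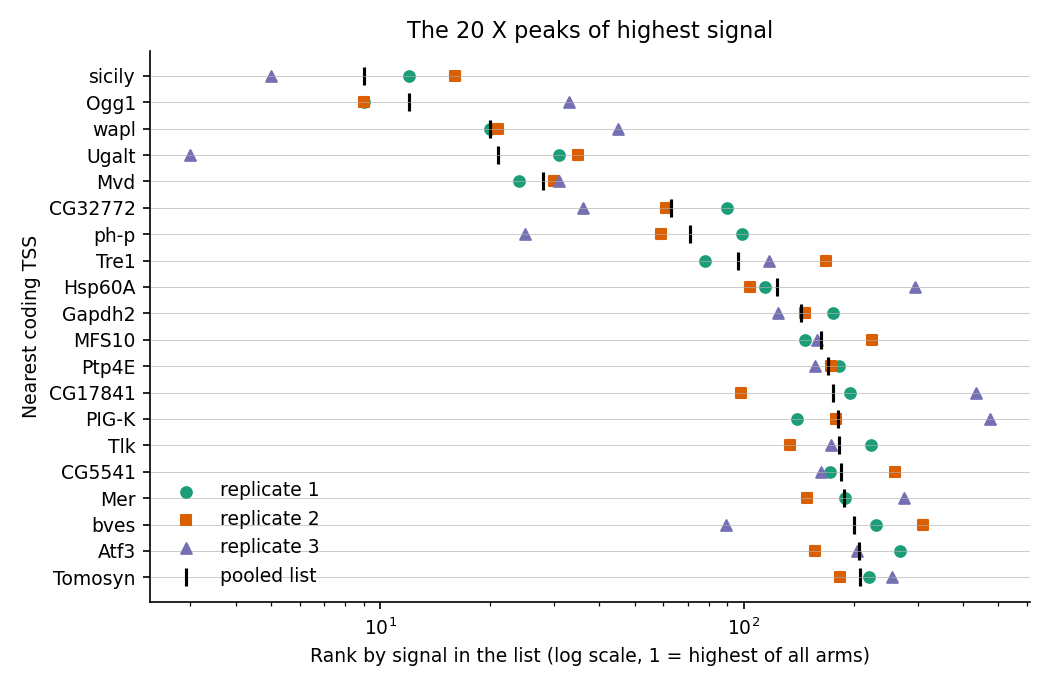
Ranks by signal, on a log scale, of the 20 X peaks of highest signal in the pooled list (black ticks) and in the lists of the 3 replicates (circles, squares and triangles), named by the nearest coding TSS. All 20 stay within the first 500 ranks of every replicate, and replicate 3 lies well apart from the other two at Ugalt, bves, CG17841 and PIG-K, for example.

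Of the 20 X peaks of highest signal, 15 were at promoters, that is with the summit within 500 bp of a coding TSS, and 14 of these summits were upstream. All 20 were supported by all 3 replicates, meaning that at least 1 bp overlapped one of the highest regions of each. The pooled list was made from these same replicates, so such support of its strongest peaks is no independent result. Among all 554 X peaks, 44.2% were at promoters and 49.8% had this support. Other promoters among the 20 belonged to the chaperonin gene Hsp60A (signal 1038), the glycolytic gene Gapdh2 (969.8), the Polycomb gene ph-p (1441), the Hippo pathway gene Mer (853.8) and the bZIP factor gene Atf3 (792.3). The Hsp60A peak ranked 114, 104 and 296, and the Gapdh2 peak 176, 147 and 124. Peaks inside introns were at CG32772 (1473), at Tre1, a receptor that guides migrating germ cells (1225), at the Tousled-like kinase gene Tlk (878.5) and near the start of CG5541, inside hiw, which encodes a ubiquitin ligase of synapses (869.3). X, with 15.5% of all peaks, held 3 of the 20 peaks of highest signal of all arms and 8 of the first 100. The upper 716 peaks held 19.1% of the X peaks and 19.8% of those on 2L, 3L and 3R (Fisher's exact p = 0.766).

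At the threshold of the list, X promoters and introns stood on both sides. The 5 X peaks of lowest signal included one at the promoter of zld, the pioneer factor of the early embryo (147.0, summit at -66 bp). The others were intron peaks nearest to CG15465 (146.7) and CG43658 (146.6) and peaks at the starts of CG43759 (146.5) and CG32814 (146.3). The 5 X regions just outside were at CrebB (146.1), chas (145.7), CG8206 (145.6), CG1578 (145.5) and eas (145.5). The signals of these 10 regions differed by under 2 units.

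Fewer X peaks lay at promoters than on the other arms, and more lay in introns. Of the X peaks, 245 of 554 (44.2%, 95% exact interval 40.04 to 48.5%) were at promoters, against 1173 of 2273 (51.6%, 49.5 to 53.7%) on 2L, 3L and 3R. This is an odds ratio of 0.744 (0.614 to 0.900, two-sided Fisher's exact p = 0.00205). Replicates 1, 2 and 3 gave shares of 48.9%, 36.2% and 49.2% on X (mean 44.8% ± 7.39, SD, n = 3) and 54.1%, 41.9% and 56.4% on the other arms (50.8% ± 7.81). The differences, X minus the other arms, were -5.22, -5.64 and -7.21 points and spread less than either share. The exact sign-flip test over 3 replicates cannot go below p = 0.25, and gave p = 0.25 here.

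Intron summits made up 236 of the 554 X peaks (42.6%) against 728 of 2273 (32.0%) on the other arms (odds ratio 1.58, Fisher's exact test, Benjamini-Hochberg adjusted over 7 classes, p = 2.83e-05). The replicates gave 39.7%, 47.6% and 37.2% on X and 30.9%, 36.0% and 29.0% on the other arms. Intergenic summits were the rarer kind on X, with 40 peaks (7.22%) against 283 (12.5%; odds ratio 0.547, Fisher's exact adjusted p = 0.00119). They were fewer in every replicate, at 6.08%, 8.92% and 7.25% on X and 10.8%, 17.2% and 10.7% elsewhere. Without replicate 2 this difference missed the threshold (odds ratio 0.600, Fisher's exact adjusted p = 0.0555). Summits in 3′ UTRs numbered 13 (2.35%) on X and 23 (1.01%) on the other arms (odds ratio 2.35, Fisher's exact adjusted p = 0.0324), a small class whose call was lost with promoters widened to 1000 bp (adjusted p = 0.0582). With that width 2 classes passed, against 4. The 3′ UTR odds ratio was 4.03 without replicate 1 and 3.63 without replicate 2.

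The make-up of the arms differed in the same direction for introns, intergenic sequence and 3′ UTRs. Introns outside promoters made up 41.2% of X bases and 39.4% of those of the other arms, and intergenic sequence 23.0% and 28.7%. Promoter bases were close, at 11.01% and 11.3%, and 3′ UTRs took 6.66% and 4.85%. The part of arm composition in the class differences was not tested.

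**Figure D2:**
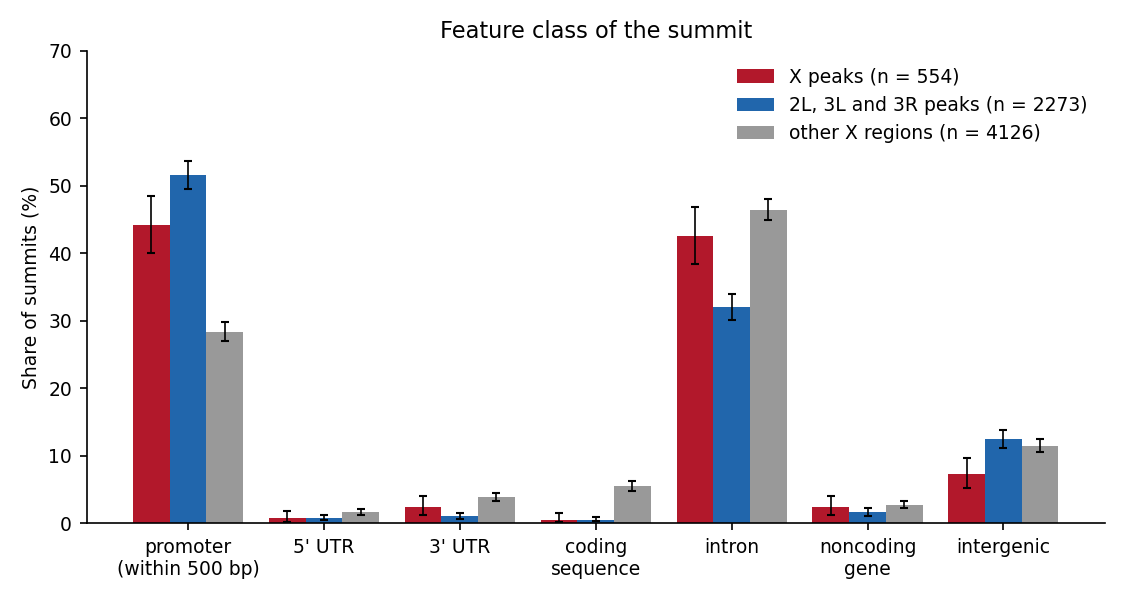
Share of summits in each feature class (%, bars from 0, with 95% exact binomial intervals over regions) for the 554 X peaks, the 2273 peaks on 2L, 3L and 3R and the 4126 other X regions. X peaks show 44.2% promoter and 42.6% intron summits, and the other arms 51.6% and 32.0%.

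The 236 intron peaks lay in 151 coding genes, 103 of which held 1. Their median distance to a coding TSS was 2516 bp (504 to 42289 bp), against 2994 bp on the other arms. With peaks of every class inside a gene counted, some genes held many, and these were singled out after their values were seen. CG1677, 124.7 kb long, held 10 peaks, 7 of them supported by all 3 replicates. The strongest of these (711.6) was at a start of CBP, a gene inside CG1677. CHES-1-like, a forkhead factor gene of 27.05 kb, held 8, and Hr4, a nuclear receptor gene of the ecdysone response, held 7. In each of these 2 genes 4 peaks were supported by all 3 replicates. Tis11, which encodes an mRNA-destabilizing zinc finger protein, held 6 peaks, none of which was supported by all 3. The phosphodiesterase gene dnc and the myoblast adhesion gene kirre also held 6 each, of which 3 and 4 had that support. These 2 genes are long, at 167.3 and 394.1 kb, and X as a whole held 23.5 peaks per Mb. The counts per gene were not corrected for length, so they are no measure of density. Among the peaks counted, 3 at dnc and 1 each at CG1677, CHES-1-like, Tis11 and kirre were promoter peaks.

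The densest stretch of X, by the number of peaks in 20000 bp, was at Raf, the kinase of the MAP kinase cascade downstream of Ras. It held 8 peaks whose summits spanned 10468 bp, from the promoter of CG2865 (signal 312.2) into the introns of Raf. Neighbouring summits were 1032 to 1806 bp apart, with a median of 1538 bp. The strongest lay at 2248 bp (X:2297593-2297852, signal 776.5), with ranks of 259, 264 and 119. The next was at 5227 bp (X:2300587-2300815, signal 574.5), with ranks of 465, 461 and 215. Of the 8 peaks, 7 were supported by all 3 replicates.

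Promoter and intron peaks did not stand apart in strength on X, with median signals of 218.5 and 218.0. Their support differed between replicates. Replicate 2 supported 64.1% of the X promoter peaks and 83.5% of the X intron peaks, whereas replicate 1 supported 86.1% and 82.2%, and replicate 3 71.8% and 70.8%. On the other arms replicate 2 likewise gave 65.0% and 78.7%. Replicate 2 was therefore low for promoters on every arm set compared.

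**Figure D3:**
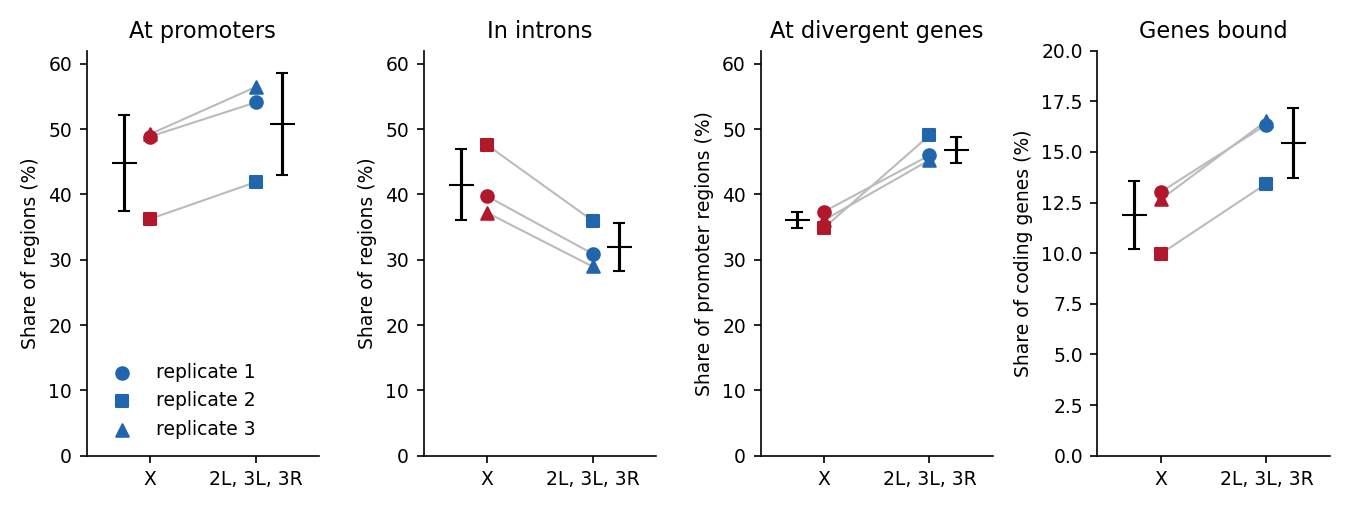
Values of each replicate (circles, squares and triangles, joined by lines) on X and on 2L, 3L and 3R, with the mean and SD of 3 replicates in black, for the share of the highest regions at promoters and in introns, the share of promoter regions at divergent genes, and the share of coding genes bound (%). The lines run the same way in all 3 replicates in each panel.

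Against the weaker X regions, X peaks were richer in promoters, but not against the strongest of those regions. Of the 4126 other X regions, 1170 (28.4%) were at promoters (odds ratio 2.00 for peaks, two-sided Fisher's exact p = 1.39e-13). Among the 436 of them with a q-value of at most 0.01, with signals from 101.1 to 146.1, the share was 47.0% (42.3 to 51.8%). The odds ratio for peaks was then 0.893 (exact p = 0.403), so the direction turned. On 2L, 3L and 3R the peaks' odds ratio was 3.399, and it differed from that on X (Breslow-Day test, not an exact test, p = 2.55e-07). Limited to other regions with a q-value of at most 0.01, an alternative added after the data were seen, the ratio of the odds ratios was 0.657 (Breslow-Day test, not exact, p = 0.00331).

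The promoter share was followed down the pooled list in bands of 3582 ranks, also after the data were seen. On X it was 44.2% among the peaks, 46.4% (42.2 to 50.6%) in the next band and 38.2% in the third. On the other arms it was 51.6%, 42.1% (39.98 to 44.2%) and 32.9%. In the eighth band it was 17.9% on X and 15.1% elsewhere. In the pooled list X was below the other arms among the peaks alone and above them in each of the 7 later bands. Over all other regions the promoter share was 28.4% on X and 23.9% on 2L, 3L and 3R (odds ratio 1.26, exact p = 3.93e-09). In the second band of their own lists, replicates 1, 2 and 3 gave 45.3%, 27.9% and 51.7% on X and 44.8%, 20.9% and 43.2% on the other arms, so X was higher in each, by little in replicate 1. In the third band they gave 41.3%, 16.0% and 39.1% on X and 35.0%, 17.0% and 34.5% on the other arms, so X was lower in replicate 2.

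**Figure D4:**
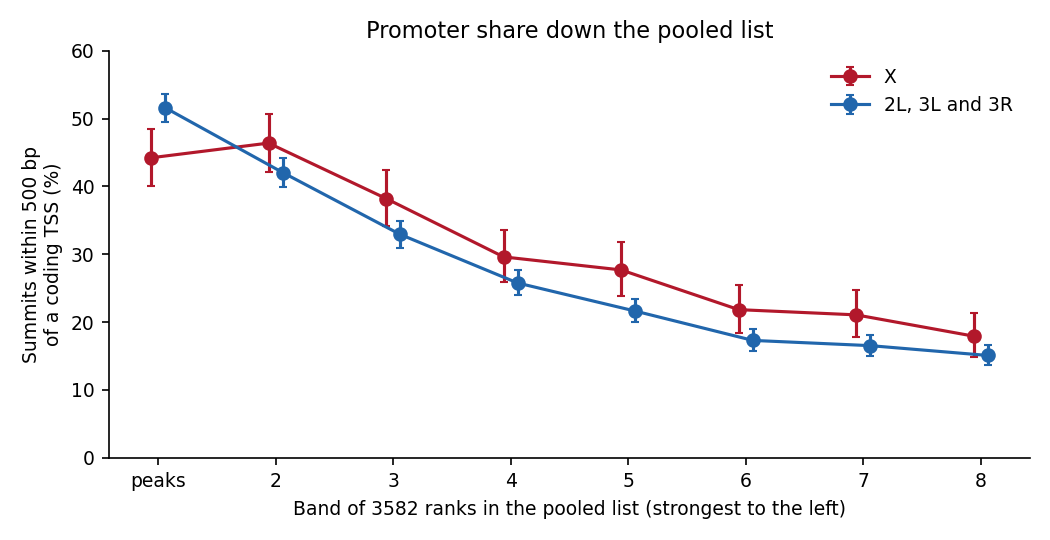
Share of summits within 500 bp of a coding TSS (%, with 95% exact intervals) in 8 successive bands of 3582 ranks of the pooled list, the first being the peaks and the later ones holding other regions, for X and for 2L, 3L and 3R. The X share is lower than that of the other arms in the first band (44.2% and 51.6%) and higher in the second (46.4% and 42.1%).

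At promoters, X summits lay on the upstream side as often as the counts could show. Of 243 X promoter summits with a defined side, 159 (65.4%, 59.1 to 71.4%) were upstream, against 802 of 1170 (68.5%) on the other arms. The odds ratio of 0.869 had an interval of 0.643 to 1.18 (Fisher's exact p = 0.365). The replicates gave 64.7%, 78.5% and 66.3% on X and 64.3%, 76.7% and 60.7% on the other arms. X was thus higher in each replicate, by little in replicate 1, which is the other direction from the peak list. The median X position was -54 bp with quartiles of -178 and 26 bp, against -39.5 bp with quartiles of -120 and 19 bp. The 50 bp just upstream of the TSS held 14.8% of the X promoter summits and 22.6% of those on the other arms, a difference that was not tested. Other X regions at promoters were upstream in 617 of 1168 cases (52.8%), less often than X peaks (odds ratio for peaks 1.69, exact p = 0.000381).

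**Figure D5:**
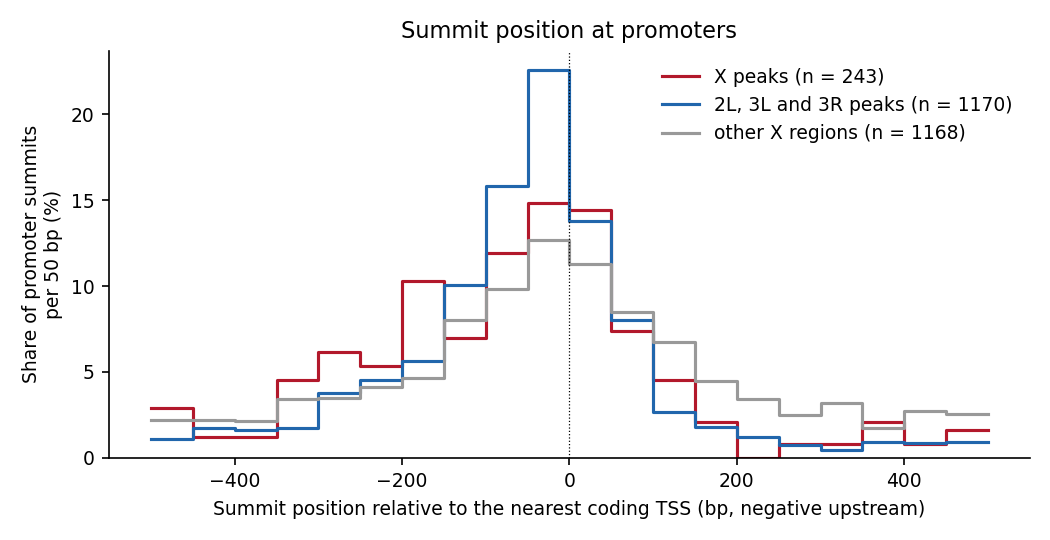
Share of promoter summits per 50 bp (%) by position relative to the nearest coding TSS (bp, negative upstream) for X peaks (n = 243), peaks on 2L, 3L and 3R (n = 1170) and other X regions (n = 1168). The X peaks have 14.8% of summits in the last 50 bp before the TSS, and the other arms 22.6%.

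Fewer coding genes were bound on X. A gene counted as bound if any of its annotated TSSs had a summit within 500 bp. On X, 282 of 2196 genes were bound (12.8%, 11.5 to 14.3%), against 1391 of 8817 (15.8%) on 2L, 3L and 3R. This gives an odds ratio of 0.787 (0.683 to 0.904, two-sided Fisher's exact p = 0.000546). Over all arms 15.5% of 13945 coding genes were bound. In the replicates the shares were 13.0%, 9.97% and 12.7% on X and 16.4%, 13.4% and 16.5% on the other arms, which makes differences, X minus the other arms, of -3.33, -3.47 and -3.88 points. X genes have more annotated start sites each (1.51 against 1.37). Among genes with a single start site, an alternative added after the data were seen, 104 of 1512 X genes (6.88%) and 11.9% of 6630 other genes were bound. Of the 282 bound X genes, 133 were bound in all 3 replicates. Whether the single X copy of males plays a part in the lower bound share was not tested.

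Head-to-head genes were also less frequent at X peaks, by a margin near the threshold. Of the X promoter peaks, 96 of 245 (39.2%, 33.0 to 45.6%) were at a gene with a divergent coding neighbour starting within 1000 bp, against 46.2% on the other arms (odds ratio 0.750, Fisher's exact p = 0.0481). At a promoter width of 250 bp it was 0.845 (Fisher's exact p = 0.305), with 2R among the other arms 0.760 (p = 0.0532) and with overlapping peaks merged 0.774 (p = 0.0762). The replicates gave 37.4%, 34.9% and 36.0% on X and 46.0%, 49.1% and 45.3% on the other arms, without overlap. Divergent neighbours were about as frequent among all coding genes, at 35.7% on X and 36.6% elsewhere (exact p = 0.442). The Ogg1 and Ppt1 pair, the Ugalt promoter, and the promoter between CG17841 and CG32679 (signal 889.0) were divergent examples.

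Per length of sequence X held fewer peaks, and per gene no difference passed the test. X held 19.6% (18.1 to 21.1%) of the peaks on X, 2L, 3L and 3R and 22.0% of their length (two-sided exact binomial p = 0.00233), which is 23.5 peaks per Mb against 29.3, 25.7 and 26.9 on 2L, 3L and 3R. X has 19.9% of the coding genes of these arms, and against that share the same count gave p = 0.672 (exact binomial). It has 21.4% of their coding TSSs, and against these X again held fewer peaks (exact binomial p = 0.0161). Against the X share of the pooled list (19.8%) it gave an exact p = 0.832. Without replicate 1 the X share was 20.2% and the call was lost (exact binomial p = 0.100 against length). The highest regions of the replicates numbered 22.3, 22.9 and 22.3 per Mb on X (22.5 ± 0.322) and 27.2, 27.2 and 27.3 on the other arms. Whether the single X copy of males plays a part in these counts was not tested. Along X, full Mb bins held from 2 to 45 peaks with a median of 23. The bins from 2 to 3 Mb, which hold wapl, ph-p, Ugalt and Raf, and from 6 to 7 Mb held 45 each, and the bin from 22 to 23 Mb held 2.

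The replicates ranked X peaks about as they ranked the others. All 3 replicates supported 276 of the 554 X peaks (49.8%, 45.6 to 54.1%), against 48.6% on 2L, 3L and 3R (odds ratio 1.05, 0.868 to 1.27, Fisher's exact p = 0.636) and 48.8% of all peaks. Support by replicates 1, 2 and 3 was 83.4%, 73.8% and 71.7% on X and 86.6%, 71.5% and 73.5% on the other arms. The direction differed between replicates. No replicate supported 9 X peaks. The upper 1791 peaks by signal held 49.6% of the X peaks and 50.02% of the others (odds ratio 0.985, exact p = 0.887). Within each replicate's list the median percentile of X peaks was 93.5, 94.9 and 93.4, against 94.2, 94.4 and 93.7 (difference -0.22 ± 0.611 points, SD, n = 3, exact sign-flip p = 0.75).

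Every X peak had a region in the relaxed list of replicate 1, whereas 55 had none in replicate 2 and 4 had none in replicate 3. Matched summits were 20 bp apart (median) between replicates 1 and 2, 23 bp between 1 and 3 and 28 bp between 2 and 3. Spearman's rho of the signals across these regions, which share libraries and are not independent, was 0.719, 0.626 and 0.563. Among the 495 X peaks with a region in all 3 relaxed lists, the replicates differed most at Trf4-1, a noncanonical poly(A) polymerase gene, and at CHES-1-like. Next came a peak in an intron of NetA, a guidance cue gene. Trf4-1 ranked 2650, 27993 and 1993, CHES-1-like 2446, 26624 and 4215, and the NetA intron 1764, 11363 and 23930. Replicate 2 was the low one in the first pair and replicate 3 in the last.

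No sequence element tested differed in frequency between X summits and those on the other arms beyond the threshold. Each of 11 words was sought on either strand in windows of 201 bases centred on the summit, and none differed between X and the other arms after Benjamini-Hochberg adjustment of Fisher's exact tests (0 of 11, lowest unadjusted p = 0.117). At an unadjusted p under 0.05 the count was also 0. The word TATCGATA, the site of the factor Dref, was in 23 X windows (4.15%) and 3.61% of the others. GAGAGAGA, a repeat bound by the GAGA factor, was in 3.61% of both. CACACACA was in 8.48% and 7.48%, and CAGGTAG, the site of Zelda, was in 5 X windows (0.903%) and 1.19% of the others. Some of these words overlap, since TATCGATA holds CGATA. TATCGATA, GGTCACAC, GAATACCC and others of the 11 were seen in earlier results of these data. Tests of the words here and below are therefore not independent evidence.

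GAATACCC was in 10 X windows (1.81%) and 71 of the others (3.12%; odds ratio 0.570, 0.260 to 1.12). The replicates gave 2.09%, 2.04% and 1.53% on X and 3.03%, 3.12% and 2.67% on the other arms, lower on X in each. CAGCTG was likewise lower in each, at 11.4%, 7.43% and 10.1% on X and 13.4%, 10.95% and 14.5% elsewhere. So were GGTCACAC, TAATTA and TATAAA, while TATCGATA and GAGAGAGA were higher on X in each replicate. A like direction in the replicates was thus not particular to GAATACCC. GAATACCC was in 24 other X regions (0.582%), so X peaks held it more often (odds ratio 3.14, Fisher's exact p adjusted over 11 words = 0.0255). The word was first found in earlier results on these peaks, X included, so this is not independent evidence. In tiles of 201 bases over the whole of X its share was 0.422%. The 10 X peaks with the word had a median signal of 719.8, against 215.1 without it, and on the other arms the medians were 717.6 and 215.2. Of the 10, 8 were among the upper 1791 peaks, 7 at promoters and 8 supported by all 3 replicates. The word occurs 509 times on X, and 13 of these copies (2.55%) were in X peaks and 54 (10.6%) in any pooled X region.

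The only other word that differed between X peaks and other X regions was TATAAA, a word that matches the TATA box. It was in 131 X windows (23.6%) against 17.6% (odds ratio 1.45, Fisher's exact adjusted p = 0.00914). This call was lost without replicate 2 (Fisher's exact adjusted p = 0.199) and in the upper 1791 peaks (0.263). TATAAA was in 24.5% of the X promoter peaks and 23.0% of the other X peaks. It was also in 20.4% of tiles over the whole of X and 22.2% of windows at X start sites, so the peaks were near these shares. Among regions outside the peaks, X differed from the other arms in several words. CACACACA was in 11.7% of the other X regions and 7.64% of those on 2L, 3L and 3R (Fisher's exact adjusted p = 9.79e-15), and GAGAGAGA in 4.07% and 2.36% (2.67e-08). TATCGATA was in 2.47% and 1.01% (Fisher's exact adjusted p = 4.61e-11). Over all of X, 5.76% of tiles held CACACACA, against 3.79% elsewhere. For GAGAGAGA the tile shares were 1.53% and 1.05%, and for TATCGATA 0.704% and 0.494%, so X was richer in all of these words along its length.

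The dosage compensation genes on X were not bound by the rule used. The nearest summit to roX1 was at -5956 bp, to roX2 at -18485 bp and to mof, the acetyltransferase of the complex, at -3744 bp. One of the highest regions of replicate 3 was near the start of roX2, and none in the other two. The autosomal members msl-1, msl-2, msl-3, mle, Clamp and JIL-1 were not bound either, although one of the highest regions of replicate 1 was near a start of msl-3 and one of replicate 3 near a start of JIL-1. JIL-1 did hold 3 peaks inside the gene, away from its starts, with the nearest summit at 1925 bp. Of 6 X-linked genes of sex determination, 1 was bound, Sxl, the splicing regulator that is the female switch (signal 278.7, ranks 1353, 1358 and 1214). It was bound in every replicate, whereas sisA, sc, upd1, run and snf were bound in none. As 12.8% of all X coding genes were bound, counts this small say little of either list.

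Among 27 X-linked genes listed as developmental transcription factors 4 were bound (14.8%), close to the X background. They were Sxl, which is an RNA-binding protein, hdm (222.1), known for a role in meiosis and not as a transcription factor, the homeobox gene vnd (169.3) and CHES-1-like (160.3). The replicates bound 4, 4 and 5.

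Of 27 signalling and polarity genes on X, 7 were bound (25.9%), and 6, 5 and 10 in the replicates. This and the counts of the lists that follow stand beside a background of 12.8% of all X coding genes, and their difference from it was not tested. The rule counts summits near starts only, so Raf in this list and Tlk among the neuronal genes were not bound, although each held 7 peaks. Mer led with ranks of 190, 149 and 276. The kinase gene sgg, the fly GSK3, had a signal of 637.6 and ranks of 341, 400 and 201. The polarity genes sdt (343.9, ranks 1254, 812 and 568) and par-6 (280.5, ranks 1266, 1197 and 1796) were supported by all 3 replicates. The integrin gene mys and the chromatin reader gene fs(1)h shared 1 peak (158.8) that ranked 6735, 3585 and 1004. Replicate 3 alone placed it among its highest regions.

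Of 25 chromatin and transcription genes 5 were bound (background 12.8%), namely wapl, ph-p, the topoisomerase gene Top1 (284.1), Trf2 (181.5) and fs(1)h. The ph-p peak ranked 99, 59 and 25. Of 19 neuronal genes, 4 were bound (21.1%), led by the RNA-binding protein gene elav (557.4, ranks 391, 345 and 556) and dnc (453.4, ranks 775, 571 and 341). The adhesion gene Fas2 (333.0) ranked 960 and 412 in replicates 1 and 3 and 6491 in replicate 2. Of 15 genes of metabolism, 4 were bound (26.7%), led by the fumarase gene Fum1 (485.1, ranks 472, 458 and 612). The IMP dehydrogenase gene ras (292.8) ranked 1127, 5120 and 814. Replicate 2 gave the lowest counts in these 3 lists, with 3, 2 and 1 genes bound.

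All 15 cytosolic ribosomal protein genes on X were bound, and 14, 11 and 14 in replicates 1, 2 and 3 (13.0 ± 1.73, SD, n = 3). This list is known from earlier results on these peaks to have a high bound share. Without embryos lacking the tag, how much of the signal at these promoters depends on the tagged protein was not tested. Their nearest summits lay between -45 and 53 bp of a TSS, a narrower range than the quartiles of all X promoter summits. RpS10b led with a signal of 774.1 (X:19597892-19598180, summit at 3 bp, ranks 209, 253 and 238). RpL17 (638.6, ranks 338, 396 and 220), RpS28b (605.2, ranks 325, 466 and 272) and RpS19a (540.1, ranks 424, 533 and 310) came next. The signals of the 15 ran from 162.0 to 774.1 with a median of 335.9, and 11 peaks were supported by all 3 replicates.

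The lowest pair was RpS14a (162.0) and RpS14b (171.5), adjacent near-identical copies of 1 gene. Whether the authors' mapping split reads between these copies was not tested. Neither copy had a region in replicate 2. RpS14a ranked 3612 in replicate 1 and 1988 in replicate 3, and RpS14b 2173 and 10010. RpL22 was placed higher by replicate 3 (rank 175) than by replicates 1 and 2 (1193 and 1636). RpL7A followed the same order, with ranks of 904, 1868 and 268. RpS5a (446.9) was even across replicates, at 542, 609 and 650.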

How the data were processed

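The authors deposited regions of wek ChIP-seq on dm6, per the labels, as relaxed lists of 30000 regions for each of 3 replicates and for the pooled replicates, all against the same single control, and a thresholded list by the irreproducible discovery rate. The aligner, caller, versions and threshold are not stated in the labels or files used. Each region carries the authors' signal, the deposited −log10 of its q-value and a summit. The lists hold no read counts, so depth is unknown, and 95% exact binomial intervals cover the number of regions only.

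Genes came from Ensembl release 115 (BDGP6.54) and bases from RefSeq's sequence of that build. Summits within 500 bp of a coding TSS were called promoter, and the rest were assigned in the order 5′ UTR, 3′ UTR, coding sequence, intron, noncoding gene, intergenic. X was compared with 2L, 3L and 3R, and 2R was left for an alternative. Two-sided Fisher's exact, exact binomial, Breslow-Day and exact sign-flip tests were run in Python 3.11.15 with scipy 1.17.1 and statsmodels 0.14.6, with 0.05 as the threshold. Scripts were tested on simulated data. All p-values across regions or genes treat these as independent, which neighbours are not, and regions are no replicates. The p-values over 11 words and over 7 classes carry Benjamini-Hochberg adjustment. Alternatives changed the TSS distance, the overlap rule, the arms, the part of the list and the replicates.

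The named genes are the 20 X peaks of highest signal, up to 4 bound members of each gene list, the 5 regions to each side of the threshold, the 3 peaks ranked most differently, roX1 and roX2, and the densest cluster. Further list members and the genes with many peaks were named after their values were seen. Members and lists were chosen with earlier results of these data known. Of the listed symbols 2 found no match in the annotation.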

Additional observations from a re-analysis of the deposited data

How the results depend on the processing

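Of the recomputed values of the comparisons, 80 were kept, 8 changed direction, 6 lost their call and 1 count moved. Kept means the same direction and side of the threshold, so values that again had no call are among them. For the number of classes or words that passed, kept means a similar number. For single classes and words 31 values were kept and 5 lost their call. Values without 1 replicate rest on the peaks supported by both others. The X share of peaks was then 18.7 to 20.2%, and the call was lost without replicate 1 (exact binomial p = 0.100). The same count of 554 peaks, 19.6%, was no longer a call against the X share of coding genes or of the pooled list. Odds ratios of X against the other arms without 1 replicate were 0.626 to 0.723 for promoters, 0.808 to 1.00 for upstream summits, 0.678 to 0.759 for bound genes and 0.513 to 0.659 for divergent promoters. They were 0.851 to 1.08 for support and 1.03 to 1.19 for the upper 1791 peaks. Values that had no call changed direction for upstream summits without replicate 3, for support without replicate 2 and for the upper peaks without each of the 3. The odds ratio for promoters against other X regions was 1.56 to 2.13, and the ratio of odds ratios 0.496 to 0.573. The difference of median percentiles was -0.56 to 0.0392 points, above 0 without replicate 1. Of the feature classes 3 to 4 passed, and of the words 0. Support turned to 0.965 with a reciprocal overlap of 50%, and promoters against other X regions to 0.893 at a q-value of at most 0.01. Divergent promoters lost their call at 250 bp (0.845), with 2R (0.760) and with peaks merged (0.774), and 2 classes passed at 1000 bp. The causes were not tested. Among single classes, the 3′ UTR call was also lost in the upper 1791 peaks (adjusted Fisher's exact p = 0.112). No paired analysis was possible because the labels give only 1 group, with no second group to pair by replicate number, and the sign-flip tests pair arms within a replicate. Depth is unknown, so its part in the low support of promoter peaks by replicate 2 was not tested.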
